A study of Homo sapiens with 14 samples.

Results

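The loci described here lie on the short arm of chromosome 10, from its end to position 26.9 Mb of the human genome build hg19. A locus is a stretch of overlapping transcripts as the authors' files bound it, and may hold more than 1 gene. All 251 loci of chromosome 10 whose start lies below 26.9 Mb were taken, with 1182 transcripts, out of 1372 loci of the chromosome and 35671 loci in the series. The members were chosen from the measured values: the bound was placed where the ratio of knockout to wild type RNA steps along the chromosome. The lower RNA level of the region is therefore a description, and no test was made of it. The short arm runs on past the bound towards the centromere, so the label covers only the outer portion of the arm.

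The study compared HEK293T cells with HEK293T cells in which SETD2 was knocked out. HEK293T cells derive from human embryonic kidney and express the SV40 large T antigen. SETD2 is the methyltransferase that places H3K36me3, the trimethyl mark on histone H3, along the bodies of transcribed genes. The labels list 3 wild type and 3 knockout RNA libraries, made from RNA depleted of ribosomal RNA, and no treatment. They do not say how the knockout was made, whether its cells are 1 clone, or whether the libraries stem from separate cultures. For 1 of the wild type RNA libraries the label gives a chromatin protocol.

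The short arm of chromosome 10 is known for genes with varied roles. They include VIM, which codes for the intermediate filament protein vimentin, GATA3, a transcription factor of kidney and T cell development, BMI1, a subunit of Polycomb repressive complexes, MCM10, a DNA replication factor, and ZMYND11, a reader of H3K36me3. Genes of a chromosome arm share no pathway. HEK293T cells are aneuploid and vary between sublines in the copies of chromosome segments they carry, and neighbouring genes can share a copy number. Copy number was not measured in the tables used here, and its part in these values was not tested. The tables pair no transcript ID with a gene symbol, so each locus is given by its position, and none is assigned to the genes just named.

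The values were FPKM (fragment counts scaled to transcript length and to the sequencing total), deposited as 1 value per transcript and group. No value of a single library and no read count was given, so the depth is unknown and no spread between libraries can be computed. The only errors are the lower and upper bounds the authors deposited for each transcript in the table of FPKM values, called the tracking table below. The table of the authors' tests, called the test table, gives a second set of group values, and its knockout values differ from those of the tracking table. The wild type values differ little, and both tables describe the same groups, so agreement between them is no independent check. Values come from the test table where no table is named. FPKM were summed over the transcripts of a locus, and the fold is the knockout sum over the wild type sum, without a pseudocount.

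Of the 251 loci, 77 reached 1 FPKM in a group with a value above 0 in both, and the folds below are of these. A further 127 were listed at 0 in both groups, and 19 lay above 0 in both groups but under 1 FPKM. The remaining 28 were listed at 0 in 1 group, 26 at 0 in knockout cells and 2 in wild type cells, and none of these reached 1 FPKM in the other group. The rest of chromosome 10 had the same imbalance, with 108 of 119 such loci at 0 in the knockout. Among the 19 low loci 9 were lower in the knockout, with a median log2 fold of 0.19, so the lower level seen in the 77 loci was not seen in them. The 77 loci ran from 239 to 875215 bases in length. Their wild type sums had a median of 10.5 FPKM and a range of 0.791 to 493.6 FPKM, and their knockout sums had a median of 9.40 FPKM and a range of 0.254 to 550.6 FPKM.

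Most of these loci had less RNA in the knockout. In bulk RNA, less RNA per cell and fewer cells with the RNA cannot be told apart. The median log2 fold of the 77 loci was -0.43, a ratio of knockout to wild type of 0.744. The 421 loci of the rest of chromosome 10 had a median of 0.13, and all 12424 loci of chromosomes 1 to 22 and X had one of 0.06. The region thus lay 0.56 below the rest of its chromosome on the log2 scale, or at 0.679 times its median ratio. In the region 60 loci were lower and 17 higher in the knockout, so 77.9% were lower, against 43.9% of all loci. Below the median of all loci lay 62 of the 77, or 80.5%, where all loci give 50% by construction and the rest of chromosome 10 gave 43.2%. With the knockout values of the tracking table the medians were -0.40 in the region and 0.10 in the rest, and 60 of the 62 loci lay below the median of all loci in both tables.

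**Figure D1:**
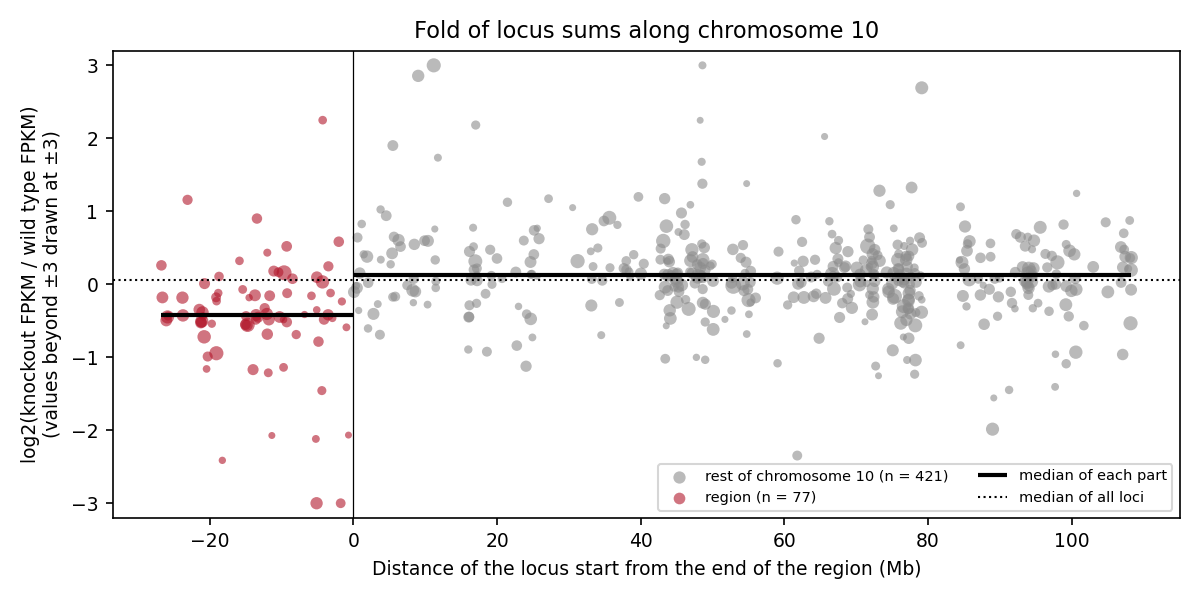
Log2 ratio of knockout to wild type FPKM of each locus sum (vertical axis) against the distance of the locus start from the end of the region in Mb (horizontal axis), for 77 loci of the region in red and 421 of the rest of chromosome 10 in grey, with larger points for higher FPKM. The black lines mark the medians of -0.43 and 0.13, and the dotted line the median of all loci at 0.06.

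The difference was one of many small shifts. The interquartile range of the region's log2 folds ran from -0.56 to -0.12, a width of 0.44, while that of the rest of the chromosome ran from -0.16 to 0.41, a width of 0.57. Between -0.7 and -0.3 lay 32 of the 77 loci (41.6%), against 10.2% of the rest of chromosome 10 and 12.6% of all loci. A knockout sum at least 1.5-fold lower was seen at 18 loci, or 23.4%, against a background of 11.1% of all loci and 7.84% of the rest of chromosome 10. At least 1.5-fold higher were 3 loci, or 3.90%, against a background of 13.1%. At least 2-fold lower were 11 loci, where 5.57% of all loci were, and 9 of the 11 were so in both tables. Most of the 11 were low, and 4 of them reached 5 FPKM in a group. Of these 4, only chr10:12938627-13180291 reached it in knockout cells. Several of the 11 had knockout sums under 1 FPKM, so they passed the floor through the wild type alone.

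**Figure D2:**
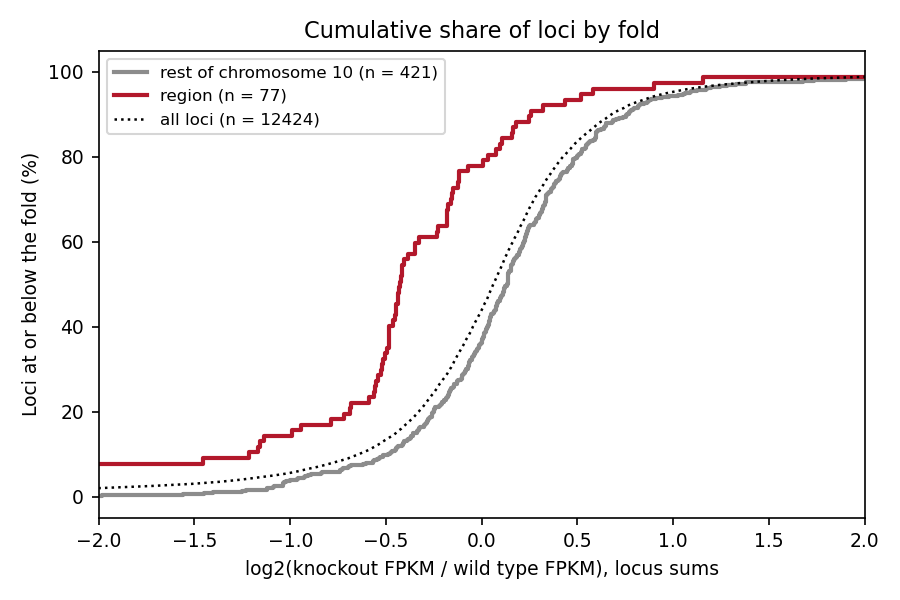
Share of loci at or below each log2 fold of knockout over wild type, for the region (red, 77 loci), the rest of chromosome 10 (grey, 421 loci) and all 12424 loci (dotted). The red line climbs most steeply between -0.7 and -0.3, where 41.6% of the region's loci lie.

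The lower level was seen from the end of the chromosome inward, with interruptions. In windows of 5 Mb the median log2 fold was -0.30 over 8 loci from 0 Mb, -0.50 over 17 from 5 Mb, -0.42 over 17 from 10 Mb, -0.45 over 15 from 15 Mb and -0.38 over 16 from 20 Mb. The last window, from 25 Mb to the bound, held only 4 loci, with a median of -1.33. Its lowest folds, at chr10:25137536-25241533 and chr10:26223196-26501456, were of knockout sums of 0.790 and 0.254 FPKM. Over the rest of chromosome 10, the medians of its 12 windows of 10 Mb lay between -0.000734 and 0.34, so each of them was above every window of the region. Read in order along the region, 15 loci in a row from 5454514 to 8117161 lay below the median of all loci, and 10 in a row did from 11495945 to 13390297. Loci at or above that median came singly or in neighbouring pairs.

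The bound itself is thinly filled with abundant loci. The last 3 loci inside it were low: chr10:25305587-25315593 stood at 2.30 FPKM in knockout cells and 2.70 FPKM in wild type cells, chr10:25936499-25937033 at 1.42 and 2.13 FPKM, and chr10:26223196-26501456 at 0.254 and 1.06 FPKM. Just outside, chr10:26986588-27150016 stood at 39.6 FPKM in knockout cells and 42.6 FPKM in wild type cells, chr10:27280843-27389421 at 2.04 and 2.07 FPKM, and chr10:27399383-27475853 at 36.5 and 37.8 FPKM. Their log2 folds were -0.11, -0.022 and -0.049, close to equal levels, and 0.27, 0.40 and 0.14 with the highest transcript of each in place of the sum. These values helped to place the bound and are a description. The innermost locus of at least 20 FPKM in the region started at 23384435, with 19.4 FPKM in knockout cells and 25.9 FPKM in wild type cells. In the test table its highest transcript was not lower, at 17.2 FPKM in knockout cells and 15.5 FPKM in wild type cells. The lower sum there came from the other transcripts, together at 2.25 and 10.4 FPKM. By the tracking values the highest transcript was slightly lower as well, with a knockout to wild type ratio of 0.920. The bounds of that transcript overlapped between the groups. Between this locus and the bound none reached 20 FPKM, so the abundant loci do not place the end of the lower stretch closely. There chr10:24872538-25012597 was higher in the knockout, at 14.3 FPKM against 9.54 FPKM in wild type cells. Its transcript with both lower bounds above 0 was lower, at 1.66 and 2.44 FPKM. Closer to the bound, chr10:25137536-25241533 was lower, at 0.790 and 8.35 FPKM. From the bound to 40 Mb the median log2 fold over 41 loci was 0.27.

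The shift was most uniform among the abundant loci. Of the 27 loci that reached 20 FPKM in a group, 25 (92.6%) lay below the median of all loci, with a median log2 fold of -0.45 and quartiles of -0.54 and -0.26. Among the 25 loci of 5 to 20 FPKM only 15 (60.0%) did, with a median of -0.18. Among the 25 loci of 1 to 5 FPKM 22 (88.0%) did, with a median of -0.43 but a lower quartile of -1.14. Of all loci in the series, 53.2%, 45.4% and 49.0% lay below it in these classes, from the highest level to the lowest. The classes are set by the higher group, so a locus can enter one through the wild type alone. In the highest class, chr10:21781587-21786191 (1.69 FPKM in knockout cells, 55.4 FPKM in wild type cells) and chr10:12938627-13180291 (9.40 and 21.1 FPKM) did so, among others. In the lowest class, some knockout sums were under 1 FPKM. The rest of chromosome 10 had medians of 0.08, 0.17 and 0.13 in the same classes, from the highest level to the lowest. By length the median was -0.30 over 12 loci of up to 5000 bases, -0.42 over 20 of up to 50000, -0.44 over 24 of up to 150000 and -0.41 over 21 longer loci, so only the class of the shortest loci had a median above that of the region by more than 0.1. By number of transcripts it was -0.48 over 11 loci with a single transcript, -0.43 over 36 with 2 to 9 and -0.42 over 30 with 10 or more.

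**Figure D3:**
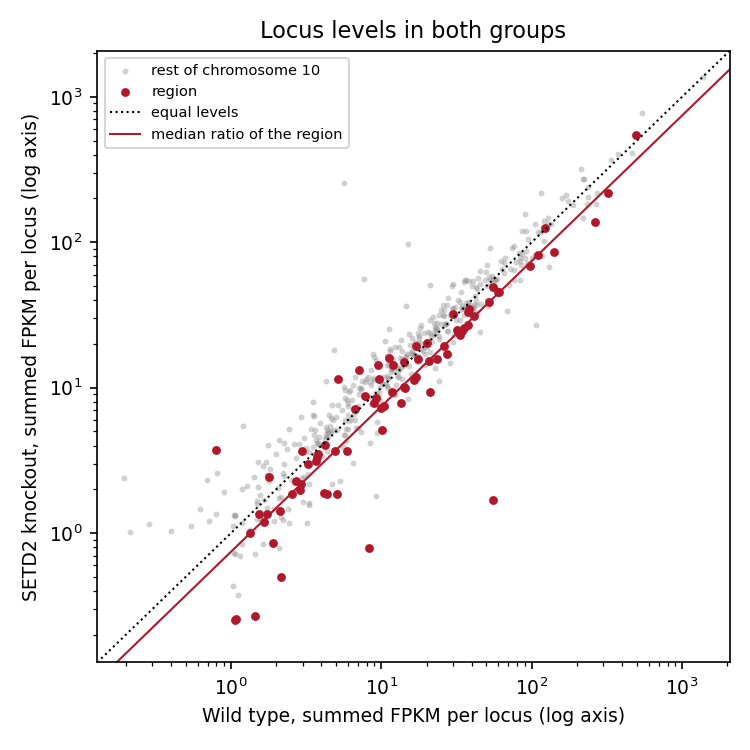
Summed FPKM per locus in the wild type (horizontal, log axis) and the SETD2 knockout (vertical, log axis) for the region in red and the rest of chromosome 10 in grey. Most red points follow the red line, the region's median ratio of 0.744, under the dotted line of equal levels.

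The summed RNA of the region was less reduced than its median locus. The 77 loci summed to 2102 FPKM in knockout cells and 2631 FPKM in wild type cells, a ratio of 0.799. The locus chr10:17256238-17279592, the most abundant of the region, held 18.8% of the wild type sum and was not lower in the knockout. Without it the ratio of the sums was 0.726, close to the median ratio. In the tracking table the ratios were 0.803 with it and 0.730 without it.

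Next to that locus, the 4 most abundant loci were chr10:12171636-12292588, chr10:7830092-7849778, chr10:22604903-22620413 and chr10:6130950-6159420. The first of these, with 36 transcripts, stood at 217.5 FPKM in knockout cells and 319.7 FPKM in wild type cells, a log2 fold of -0.56. Of its 20 tested transcripts of at least 1 FPKM, 12 were lower and 8 higher. The second stood at 137.3 and 264.2 FPKM, a log2 fold of -0.94 in the test table and -0.71 in the tracking table. Of its 8 tested transcripts of at least 1 FPKM 4 were lower, so its lower sum was not shared by all of them. The fourth stood at 86.0 FPKM in knockout cells and 141.7 FPKM in wild type cells, a log2 fold of -0.72. There all 8 tested transcripts of at least 1 FPKM were lower. The locus chr10:22604903-22620413 was near equal levels, at 124.9 FPKM in knockout cells and 122.1 FPKM in wild type cells. Its log2 fold of 0.032 lay just below the median of all loci, at 0.060. In the tracking table it was slightly lower in the knockout, at 111.6 and 119.3 FPKM, a log2 fold of -0.095.

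The 2 lowest folds among the 52 loci of at least 5 FPKM were far below the region's shift. At chr10:21781587-21786191, a locus of 2 transcripts over 4605 bases, the sum was 1.69 FPKM in knockout cells and 55.4 FPKM in wild type cells. The difference came from 1 transcript, which was listed at 0 in the knockout in both tables and stood at 53.4 FPKM in wild type cells, with wild type bounds of 44.3 to 59.9 FPKM in the tracking table. Its p-value in the authors' deposited table was 0.161 and its q-value 0.991. The other transcript of the locus stood at 1.69 FPKM in knockout cells and 1.96 FPKM in wild type cells. The transcript listed at 0 was not marked as failed, though a value of 0 need not mean that the RNA was absent. No fold is given against it, but the locus sum was ranked and is counted among the loci at least 2-fold lower.

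The second was chr10:25137536-25241533, with sums of 0.790 FPKM in knockout cells and 8.35 FPKM in wild type cells, a 10.6-fold lower knockout sum. Here the 3 transcripts of at least 1 FPKM in wild type cells were all lower. The highest of them stood at 0.315 FPKM in knockout cells and 3.98 FPKM in wild type cells, with bounds of 0 to 0.611 and of 1.86 to 5.92 FPKM in the tracking table, which did not overlap. Its q-value in the authors' deposited table was 0.156, so it did not pass.

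The other 8 of the 10 lowest loci, ranked on log2(FPKM + 1), had log2 folds from -1.46 to -0.68. The lowest of them was chr10:22514627-22514953, a single transcript over 327 bases at 1.85 FPKM in knockout cells and 5.09 FPKM in wild type cells. At chr10:12938627-13180291 the sums were 9.40 and 21.1 FPKM, and 5 of 6 tested transcripts of at least 1 FPKM were lower. At chr10:14920819-14996431 the sums were 17.1 FPKM in knockout cells and 27.5 FPKM in wild type cells, with all 6 such transcripts lower. The knockout sums at chr10:6622381-6633059, chr10:22045466-22292698 and chr10:18948334-18970568 were 5.09, 7.85 and 3.67 FPKM, against 10.1, 13.5 and 5.92 FPKM in wild type cells. All of the 10 were lower in the tracking table too, where the 8 had log2 folds from -1.13 to -0.67.

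**Figure D4:**
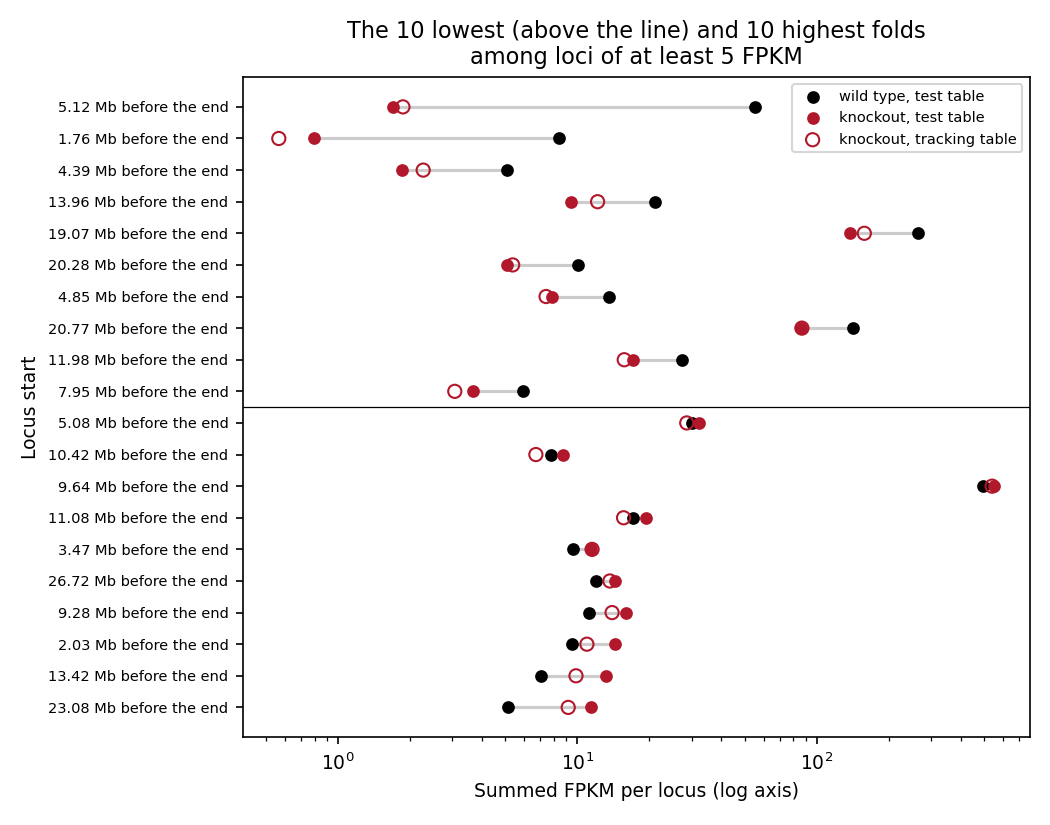
Summed FPKM (log axis) of the 10 lowest and the 10 highest loci by log2(FPKM + 1) fold among the 52 loci of at least 5 FPKM, each row labelled by the distance of its start from the end of the region. Black points are wild type, filled red points knockout in the test table and open red points knockout in the tracking table. In the upper rows all red points lie left of the black ones, while in 3 of the lower rows the open point lies left of the black one.

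At or above the median of all loci lay 15 of the 77 loci, 12 of them among the 52 loci of at least 5 FPKM. Of the 15, 12 were at or above it in the tracking table too. The highest fold among loci of at least 5 FPKM was at chr10:3818188-3827473, with 11.4 FPKM in knockout cells and 5.12 FPKM in wild type cells, a ratio of 2.23 (1.83 in the tracking table). Of its 5 tested transcripts of at least 1 FPKM 4 were higher and 1 was lower, and the intervals of its highest transcript overlapped, at 0 to 6.96 FPKM in knockout cells and 0 to 3.23 FPKM in wild type cells. At chr10:13480484-13572262 the sums were 13.2 FPKM in knockout cells and 7.08 FPKM in wild type cells, a ratio of 1.87 (1.43 in the tracking table). The bounds of its highest transcript overlapped, at 0 to 12.4 FPKM in knockout cells and 0 to 4.68 FPKM in wild type cells. At chr10:24872538-25012597 they were 14.3 and 9.54 FPKM, a ratio of 1.498 (1.18 in the tracking table).

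The single transcript of 851 bases at chr10:17619361-17620211 stood at 16.05 FPKM in knockout cells and 11.2 FPKM in wild type cells, with overlapping bounds of 7.95 to 19.99 and 6.11 to 15.7 FPKM. The outermost locus of the region, chr10:180405-300577, stood at 14.3 FPKM in knockout cells and 12.0 FPKM in wild type cells. At chr10:23425852-23426590 the sums were 11.4 and 9.61 FPKM. These 3 loci were higher in the knockout in both tables. At the outermost locus, however, 2 of 4 tested transcripts of at least 1 FPKM were lower, and the lower bounds of its highest transcript were 0 in both groups. The loci chr10:15820169-15902519, chr10:16478942-16555736 and chr10:21823094-22032559 had ratios of 1.13, 1.12 and 1.07 in the test table but log2 folds of -0.091, -0.18 and -0.033 in the tracking table, so their direction depends on the table. No transcript of the region that was higher in the knockout passed the authors' q-value of 0.05, and none had a p-value of 0.05 or less.

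The most abundant locus, chr10:17256238-17279592, stood at 550.6 FPKM in knockout cells and 493.6 FPKM in wild type cells, and its 13 transcripts did not move together. Its highest transcript stood at 360.2 FPKM in knockout cells and 405.3 FPKM in wild type cells, a ratio of 0.889 (0.865 in the tracking table). The bounds of that transcript overlapped, at 210.4 to 473.7 and 256.6 to 534.6 FPKM. The other transcripts together went from 88.4 FPKM in wild type cells to 190.4 FPKM in knockout cells. Of these, the highest stood at 159.8 FPKM in knockout cells and 61.6 FPKM in wild type cells, with lower bounds of 0 in both groups. The higher sum of this locus therefore rested on transcripts other than its highest.

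Sums and well-supported transcripts also parted at other loci at or above the median. Only transcripts whose lower bound was above 0 in both groups were counted next, a choice made after the values were seen. In the region 61 such transcripts of at least 1 FPKM lay at 52 loci, and 52 of them (85.2%) were lower in the knockout, against 50.4% of all such transcripts and 44.4% of those in the rest of chromosome 10. Their median log2 fold was -0.51, against 0.066 in the rest. At least 1.5-fold lower were 26 of them (42.6%), against a background of 9.74%, and 0 were at least 1.5-fold higher, against 7.43%. Of the 15 loci at or above the median, 9 held such a transcript, 10 transcripts in all, of which 5 were lower and 5 higher. At chr10:18429606-18948214, for example, the sums were 14.9 FPKM in knockout cells and 14.2 FPKM in wild type cells, while the transcript with both bounds above 0 stood at 3.42 and 6.32 FPKM. At the other 43 loci with such transcripts, 47 of 51 were lower. An exception lay at chr10:7830092-7849778, among the lowest sums. Its transcript with both bounds above 0 was higher, at 46.0 FPKM in knockout cells and 35.3 FPKM in wild type cells (37.7 and 34.4 FPKM in the tracking table).

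The authors' test called few transcripts. Of 453 tested transcripts of the region 3 passed a q-value of 0.05 (0.662%), and all 3 fell in the knockout, where 0.192% of all 85852 tested transcripts were called lower and 0.0629% higher. The first, ENST00000380191 at chr10:5807186-5884095, fell from 77.6 to 41.7 FPKM (1.86-fold, q = 0.0392 in the authors' deposited table). Its bounds in the tracking table were 30.1 to 64.7 FPKM in knockout cells and 50.05 to 101.6 FPKM in wild type cells, and overlapped. The other transcripts of this locus together stood at 27.3 FPKM in knockout cells and 20.2 FPKM in wild type cells, so the sum was lower by less than the called transcript. The second, ENST00000263035 at chr10:12110971-12165224, fell from 8.62 to 4.33 FPKM (1.99-fold, q = 0.0392 in the authors' deposited table). The third, at chr10:15555948-15762124, fell from 0.798 to 0.256 FPKM (3.12-fold, q = 0.0220 in the authors' deposited table), with bounds of 0.0573 to 0.364 FPKM in knockout cells and 0.406 to 1.15 FPKM in wild type cells, which did not overlap.

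At an unadjusted p-value of 0.05, 29 tested transcripts of the region at 28 loci were lower and 0 were higher. That is 6.40% lower, against a background of 1.57% lower and 0.817% higher over all tested transcripts. In the rest of chromosome 10, 31 of 2275 tested transcripts were lower (1.36%) and 25 higher (1.099%). The bounds of both groups did not overlap for 4 transcripts of the region (0.883%), all lower, against a background of 0.416%. They include the transcript at chr10:21781587-21786191 listed at 0 in the knockout, where both knockout bounds were 0 as well. Of the 271 tested transcripts of at least 1 FPKM with values above 0 in both groups 64.6% were lower, against 44.6% of all such transcripts, a smaller share than among locus sums. These counts come from the contrast that chose the region and are given as a description.

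**Figure D5:**
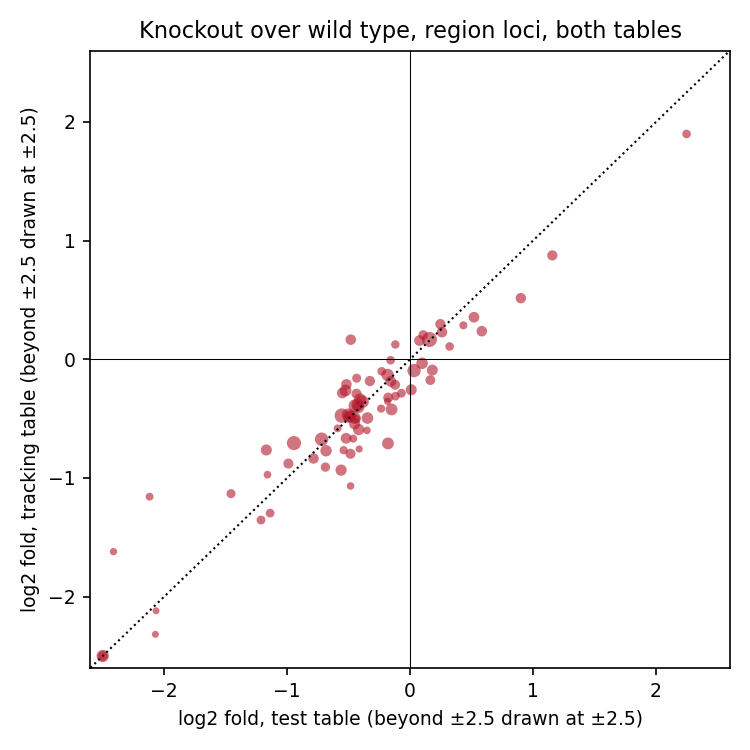
Log2 fold of knockout over wild type of the region's 77 loci in the test table (horizontal) and the tracking table (vertical), with larger points for higher FPKM. The points follow the dotted line of equal folds, and the median distance between both folds is 0.17.

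Chromosome 3 below 170 Mb and chromosome X from 100 Mb were also lower in the knockout. Their median log2 folds were -0.28 over 561 loci and -0.26 over 244 loci, with 77.0% and 74.6% of loci below the median of all loci. The region of chromosome 10 had the lowest median of these, at -0.43, over the fewest loci. Whether it differs from them was not tested. In both tables the order was the same, with -0.40, -0.28 and -0.23 in the tracking table.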

How the data were processed

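RNA of wild type and SETD2 knockout HEK293T cells (3 libraries each) was analysed, while the 8 ChIP samples are not analysed here. The tools in the submitters' processing notes are Bowtie 1.1.2, TopHat and Cuffdiff, without role or order, and the build is hg19, with an annotation not given in the sources used here. Values were deposited by the authors as FPKM per transcript and group, with bounds whose level is not given. Their test table holds, per the file headers, group values, a p-value, a q-value, a test statistic (a score, deposited and not used here) and the log2 fold, with the wild type as numerator. The deposited tables named for genes and for transcripts were identical.

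FPKM were summed per locus, and 6 loci with failed estimates, 0 of them on chromosome 10, were left out. Folds of locus sums were computed where the higher group reached 1 FPKM and neither was 0. Starts had 1 added because the files count from 0. Nothing that pairs the transcript IDs with gene names was available, so 0 IDs were matched to names. The lists by gene role and the HEK293T markers could therefore not be applied. For the same reason the knockout was not checked by SETD2 RNA, and no promoter sequence was assigned. With group values only, calls are the authors' own, at a q-value of 0.05. If libraries of a group are technical repeats, those q-values measure only that spread. Named loci were the 10 lowest and 10 highest by log2((knockout + 1)/(wild type + 1)) among loci of at least 5 FPKM, the 5 most abundant, those with a called transcript, and the 3 on each side of the bound. Members and rules were chosen with earlier results of these data known. The locus functions were tested on simulated data. Python 3.11.15, pandas 2.3.3, numpy 2.4.6, scipy 1.17.1 and matplotlib 3.10.9 were used.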

Additional observations from a re-analysis of the deposited data

Results flagged for a closer look

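Values of the region outside the main comparison differed between the tables. The tracking table gave a knockout value above 0 to 36 transcripts of the region that the test table listed at 0 for the knockout, while for the wild type this occurred for 2 transcripts. The same was seen in the rest of chromosome 10, for 159 and 6 transcripts. The labels do not say which libraries entered each knockout column.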

How the results depend on the processing

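The median log2 fold of the region lay between -0.43 and -0.34 under all alternatives run, and its difference from the rest of chromosome 10 between -0.56 and -0.42. The share of loci below the median of all loci lay between 73.9% and 86.5%. The count of loci at least 1.5-fold lower was 18 as reported (23.4%, against 11.1% of all loci). It was 10 with a floor of 5 FPKM, where 52 loci were left (19.2%, against 8.27% of all loci at that floor). In the tracking table it was 27, for which the share of all loci is not given here. With a q-value of 0.03 the authors' table called 1 of the region's 453 tested transcripts lower, and with 0.1 it called 4. The shares of all tested transcripts at these 2 limits are not given here, so these counts cannot be set against a background. The median of the rest of chromosome 10 was 0.072 when only transcripts with both lower bounds above 0 were summed, an alternative chosen after seeing the data, as was leaving out the locus of the lowest fold.

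Single loci were less stable. In the tracking table the log2 fold changed sign at 7 of the 77 loci, those starting at 6186881 (-0.26), 8095567 (0.12), 15820169 (-0.091), 16478942 (-0.18), 21823094 (-0.033), 22604903 (-0.095) and 22823778 (0.17). With the highest transcript in place of the sum it changed sign at 11 of the 75 loci where that transcript was above 0 in both groups: to lower in the knockout at 6186881 (-0.59), 16478942 (-0.34), 17256238 (-0.17) and 18429606 (-0.89), and to higher at 6469105 (0.66), 8095567 (0.53), 13203554 (0.62), 17686124 (0.43), 20105168 (0.51), 23384435 (0.14) and 23983675 (0.14). It also turned to higher at the 3 loci just outside the bound, 26986588 (0.27), 27280843 (0.40) and 27399383 (0.14). For each, the cause was not tested. No paired analysis was possible because the columns hold group values without replicates, and for the same reason no replicate could be left out. Without read counts or library values, differences of single loci have no replicate error here.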
